A study of Mus musculus with 24 samples.

Results

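The genes described here are 10 members of the HoxC and HoxD clusters, namely Hoxc4, Hoxc5, Hoxc6, Hoxc8, Hoxc9, Hoxd1, Hoxd3, Hoxd4, Hoxd8 and Hoxd9. They were picked by symbol from the 26264 genes of the count table, and not by their measured values. Polyadenylated RNA was sequenced from mouse embryonic stem cells (ESCs) of 2 engineered clones. In BAP1-AID cells the C terminus of BAP1, a histone deubiquitinase, carries an HA-AID tag. In UTX-AID cells the N terminus of UTX, a histone demethylase encoded by Kdm6a, carries it. The tags were inserted by CRISPR-Cas9, and both clones stably overexpress TIR1, the plant ubiquitin ligase subunit that degrades an AID-tagged protein once auxin (indole-3-acetic acid, IAA) is added. Cells were either pretreated with IAA (+IAA) or left without it (-IAA), and then received retinoic acid (RA) for 0, 3 or 6 h. The study's methods describe growth in serum with leukemia inhibitory factor (LIF) and RA treatment in its absence, so RA and the removal of LIF cannot be told apart. This gave 12 groups of 2 libraries. Nothing states that replicates came from separate cultures, so p-values measure the spread between these libraries, which may be technical. Each tagged line is a clone, so the tag, the clone and any batch of its libraries cannot be told apart. No untagged parental line was analysed here, and IAA without an AID-tagged protein was not analysed here either.

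Hox genes encode homeodomain transcription factors that give cells along the head-to-tail axis their positional identity. Mice carry them in 4 clusters, and within a cluster the genes at the 3′ end, which have the lowest numbers, are switched on first and most anteriorly. RA, bound by its nuclear receptors, is a classical inducer of 3′ Hox genes, and in ESCs the clusters are held silent by Polycomb complexes. Genes with the same number in different clusters are paralogs, descended from one ancestral gene.

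In the mm39 assembly, with the GENCODE vM39 gene models, all 10 genes lie on the + strand. The Hoxc genes are on chromosome 15, listed by the start of the gene model, from Hoxc5 (chr15:102875878-102925861), Hoxc9 (chr15:102884117-102893531), Hoxc8 (chr15:102898851-102902543) and Hoxc6 (chr15:102906689-102920315) to Hoxc4 at the 3′ end (chr15:102927366-102945278). The long Hoxc5 model spans those of Hoxc9, Hoxc8 and Hoxc6 and ends between Hoxc6 and Hoxc4. The Hoxd genes are on chromosome 2, from Hoxd9 (chr2:74528008-74530552) and Hoxd8 (chr2:74534959-74538297) through Hoxd4 (chr2:74542273-74559523) and Hoxd3 (chr2:74542271-74578786) to Hoxd1 (chr2:74593324-74595486). Hoxd3 and Hoxd4 share exons with each other and with the antisense transcript Hoxd3os1, and Hoxd3 also overlaps exons of the antisense RNA Haglr. Hoxd8 overlaps Hoxd3os1, Hoxc5 overlaps Hoxc10, and Hoxc9 overlaps Gm36878. Whether the authors counted by strand is not given in the sources used here, so counts of these overlapping genes may be split or shared. Hoxc4, Hoxc6, Hoxc8, Hoxd1 and Hoxd9 have no exon in common with another gene model.

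Library totals ran from 42018795 to 54034789 estimated counts, with a median of 49836516. A count of 0 therefore allows a level of up to 0.0555 to 0.0714 CPM (a count relative to its library's total, so that depth cancels), which is what 3 counts are worth in the deepest and the shallowest library. The most frequent value above 0 was 4 in every library, so 1 sequenced fragment may be worth more than 1 count, and this limit covers counting error only. The response to RA was present in both clones. Cyp26a1, the RA-degrading enzyme, went from 1.14 to 480 CPM in BAP1-AID and from 0.358 to 126 CPM in UTX-AID (-IAA, 0 and 6 h). The 8 ESC markers were above the limit in every library. Bap1 and Kdm6a RNA does not check the IAA labels, since IAA acts on the tagged protein. These are bulk samples, so fewer cells expressing a gene and less RNA per cell cannot be told apart.

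All 10 genes were scarce, and none reached 1 CPM in any library. The highest level was 0.586 CPM, for Hoxc4 in 1 UTX-AID library. A gene was called near the detection limit in a clone if it did not pass edgeR's expression filter there (10 counts, scaled for depth, in at least as many libraries as a group holds, and 15 counts in total). Hoxc5, Hoxc6, Hoxc8 and Hoxc9 did not pass in either clone. In BAP1-AID 3 of the 10 genes passed, namely Hoxd1, Hoxd4 and Hoxd8. In UTX-AID 6 of the 10 passed, namely Hoxc4, Hoxd1, Hoxd3, Hoxd4, Hoxd8 and Hoxd9. At this depth single values carry little weight. Among all genes whose replicate pair summed to between 10 and 30 counts, 23.6% to 31.5% had one replicate at 0, depending on the group.

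**Figure D1:**
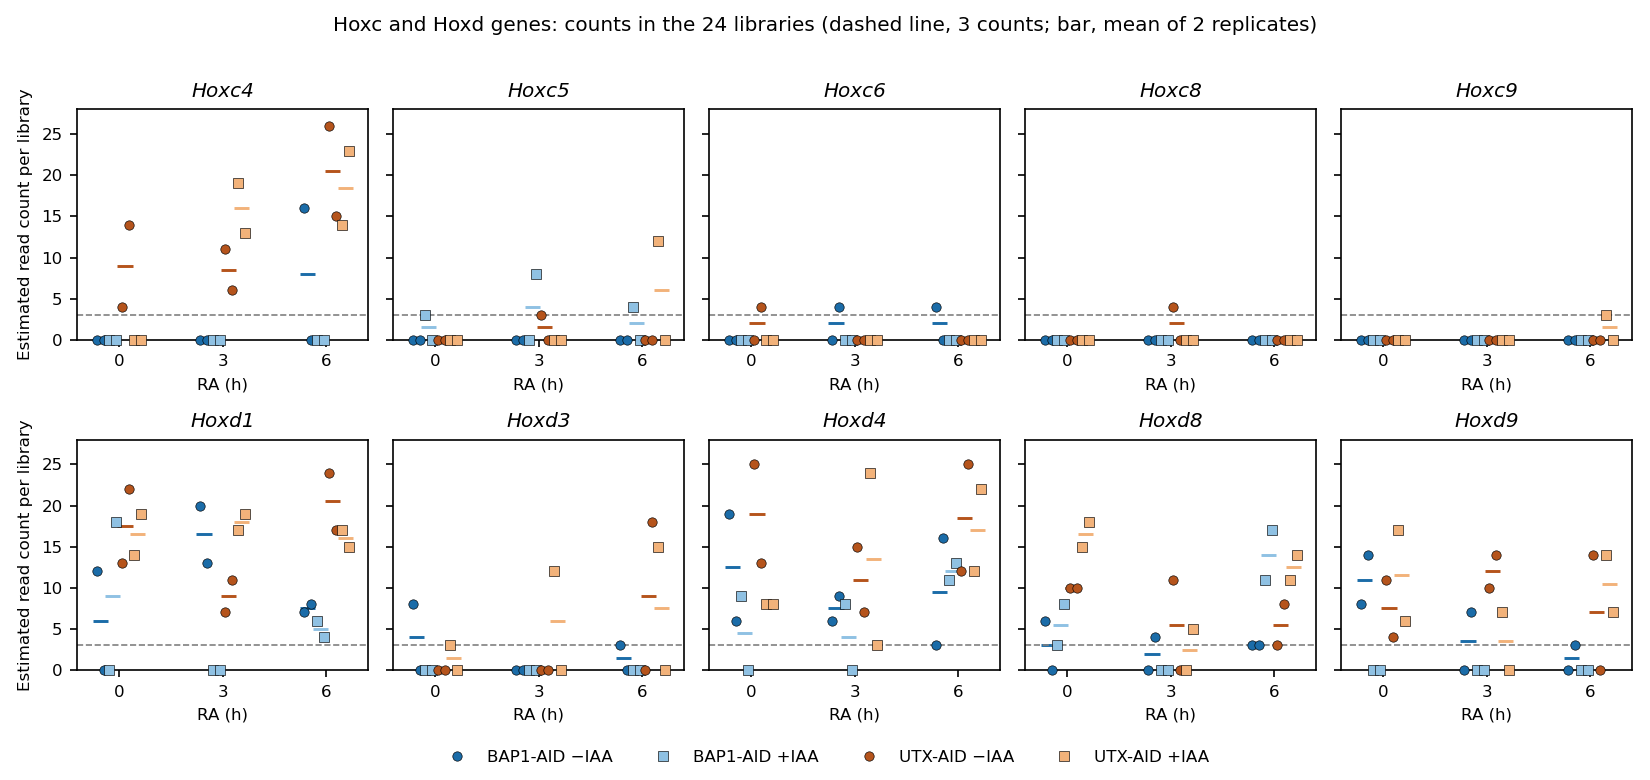
Estimated counts of each of the 10 genes in each of the 24 libraries, by clone, IAA arm and hours of RA; each point is 1 library, each bar a mean of 2 replicates, and the dashed line marks 3 counts. Hoxc8 and Hoxc9 are at 0 in 23 of 24 libraries each, and no gene exceeds 26 counts.

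The central Hoxc genes gave almost no signal. Hoxc8, a thoracic patterning gene, was at 0 in 23 of 24 libraries and held 4 counts in the other, a UTX-AID -IAA library at 3 h of RA. Hoxc9, its 5′ neighbour and also a gene of the trunk, was at 0 in 23 of 24 and held 3 counts in 1 UTX-AID +IAA library at 6 h. Hoxc6 was at 0 in 21 of 24 libraries, with 4 counts in each of the other 3. The 2 BAP1-AID libraries among them were -IAA at 3 and 6 h, and the UTX-AID one was -IAA at 0 h. Hoxc5 was at 0 in 19 of 24 libraries and totalled 30 counts over all of them. Its 12 counts in 1 UTX-AID +IAA library at 6 h stood beside 0 in the replicate of that group. For these 4 genes no response to RA was detectable at this depth, in either clone or arm.

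Hoxc4, the most 3′ gene of the HoxC cluster and a paralog of Hoxa4, Hoxb4 and Hoxd4, differed between the clones in how often it was detected. In BAP1-AID it was at 0 in 11 of 12 libraries, and 1 -IAA library at 6 h held 16 counts. In UTX-AID it was at 0 in 2 of 12, with a median of 13.5 counts. The -IAA libraries of UTX-AID held 4 and 14 counts at 0 h, 11 and 6 at 3 h, and 26 and 15 at 6 h. The +IAA libraries held 0 and 0 at 0 h, 19 and 13 at 3 h, and 14 and 23 at 6 h. With IAA both 0 h libraries lay below all RA-treated ones, whereas without IAA the 0 h library with 14 counts lay above both 3 h libraries. Over both arms the 0 h and 6 h libraries overlapped, with 0.286 CPM in the highest at 0 h and 0.271 CPM in the lowest at 6 h.

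Over the 4 UTX-AID libraries of each time, Hoxc4 averaged 0.0927 ± 0.135 CPM at 0 h, 0.25 ± 0.094 CPM at 3 h and 0.409 ± 0.152 CPM at 6 h (SD, n = 4). It was the one gene of the 10 that was called with RA, meaning an adjusted p below 0.05 and a change of more than 1 on the log2 scale in the mean of both arms. At 6 h against 0 h in UTX-AID its log2 fold change was 4.22 (SE 1.12, edgeR adjusted p = 0.0218). Of all genes tested in that comparison, 1.97% were called higher and 0.639% lower. In UTX-AID Hoxc4 passed the filter only through RA-treated libraries, where it was high. Its calls with RA are therefore no independent support for a rise. At 3 h its log2 fold change was 3.48 (SE 1.13, edgeR adjusted p = 0.0818), which was not called, and 1.76% of all genes were called in either direction. Between 3 and 6 h it changed by 0.74 (SE 0.82, edgeR adjusted p = 0.828), where 0.117% of genes were called.

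The Hoxc4 call rested on the +IAA arm, whose 0 h libraries were both at 0. Taken against 3 counts per library at 0 h, the mean level in the +IAA arm was 5.17-fold higher at 3 h and 6.37-fold higher at 6 h. These ratios leave out the spread of the RA-treated libraries, and 1 fragment may be worth more than 1 count, so they are no strict lower bounds. The fitted log2 fold change at 6 h was 7.22 (edgeR adjusted p = 0.0330, against a background of 1.63% of genes called higher), a value that depends on the prior count used for a group at 0, and this call ended without any 1 of 7 UTX-AID libraries, the 6 of the +IAA arm and -IAA 6 h replicate 1 (adjusted p between 0.0511 and 0.194). In the -IAA arm it was 1.23 at 6 h (SE 1.17, edgeR adjusted p = 0.697), where 1.51% of genes were called higher. The difference between the arms in the response was itself not called at either time. An additive fit, chosen after seeing the data, lets both arms share one RA response. It gave Hoxc4 2.41 at 6 h (95% interval 0.18 to 4.64, edgeR adjusted p = 0.17), and the call was lost, while 2.66% of all genes were called in that fit. A fit of all 24 libraries, with 2.56% of genes called, also lost it (4.21, edgeR adjusted p = 0.0959), whereas DESeq2, which called 2.15% of all genes at 3 h and 3.12% at 6 h, called Hoxc4 at both times (adjusted p = 0.0248 and 0.00152). The call ended when any 1 of 5 UTX-AID libraries was left out. Without -IAA 0 h replicate 1 the adjusted p was 0.0637, without -IAA 6 h replicate 1 it was 0.0703, and without +IAA 6 h replicate 2 it was 0.072. Without +IAA 0 h replicate 1 it was 0.0816, and without replicate 2 of that group 0.0797.

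Hoxd1, the 3′-most gene of the HoxD cluster and a paralog of Hoxb1, was detected in 20 of 24 libraries but did not pass the test with RA. In BAP1-AID the -IAA libraries held 12 and 0 counts at 0 h, 20 and 13 at 3 h, and 7 and 8 at 6 h. The +IAA libraries held 0 and 18, 0 and 0, and 6 and 4 at the same times. In UTX-AID every library held between 7 and 24 counts, with a median of 17, and the 3 times overlapped. The log2 fold change at 6 h was -0.23 in BAP1-AID (SE 1.24) and 0.13 in UTX-AID (SE 0.63). The 95% interval of the UTX-AID value ran from -1.22 to 1.48.

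Hoxd4, a hindbrain and neural tube gene, was the most regularly detected member, at 0 in only 2 of 24 libraries, both BAP1-AID +IAA. Its counts in BAP1-AID were 19 and 6, 6 and 9, and 3 and 16 in the -IAA libraries at 0, 3 and 6 h, and 9 and 0, 8 and 0, and 11 and 13 in the +IAA libraries. In UTX-AID they were 25 and 13, 15 and 7, and 12 and 25 without IAA, and 8 and 8, 24 and 3, and 12 and 22 with it. Replicates of 1 group differed as much as the time points did. The log2 fold change at 6 h was 0.55 in BAP1-AID (SE 1.11) and 0.54 in UTX-AID (SE 0.79, 95% interval -1.15 to 2.23), and neither was called. Counts of Hoxd4 may hold reads of Hoxd3, with which it shares exons.

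Hoxd3, a paralog of Hoxa3 and Hoxb3, was at 0 in 18 of 24 libraries. In BAP1-AID 2 libraries held 8 and 3 counts, both -IAA, and all 6 +IAA libraries were at 0. In UTX-AID it held 18 counts in 1 of the -IAA libraries at 6 h, and 3, 12 and 15 counts in 1 +IAA library each at 0, 3 and 6 h. In every one of those groups the replicate was at 0. Its log2 fold change at 6 h in UTX-AID was 4.19 (95% interval -0.57 to 8.96, edgeR adjusted p = 0.286). There Hoxd3 passed the filter only through RA-treated libraries, so this value is no support for a rise.

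Hoxd8 and Hoxd9, from the middle of the cluster, stayed at or under 18 counts. Hoxd8 had a median of 3 counts in BAP1-AID and 10 in UTX-AID. Its UTX-AID means were 0.266 CPM at 0 h, 0.0906 at 3 h and 0.183 at 6 h, and the log2 change at 3 h of -1.66 (SE 1.16, edgeR adjusted p = 0.501) did not pass the test. In BAP1-AID the means were 0.0824, 0.0192 and 0.168 CPM, and the 3 to 6 h change had an unadjusted p of 0.0439 in edgeR and an adjusted p of 0.21. There Hoxd8 passed the filter only through the +IAA 6 h libraries, with 11 and 17 counts, so this p is no support for a rise. Hoxd9 had a median of 0 counts in BAP1-AID and 8.5 in UTX-AID, where its log2 change at 6 h was -0.05 (SE 1.16). Its UTX-AID libraries averaged 0.19, 0.164 and 0.183 CPM at 0, 3 and 6 h.

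Counted together, 0 of the 3 genes tested in BAP1-AID were called with RA at 3 h, at 6 h or between them, where 2.93%, 5.12% and 0.599% of all genes were called. At an unadjusted p under 0.05 edgeR gave 0, 0 and 1 of these genes, the last being Hoxd8 with its limit from the filter. DESeq2 called none, but between 3 and 6 h it gave no adjusted p for any of them and so could call none. In UTX-AID 0 of 6 were called at 3 h, 1 of 6 at 6 h and 0 of 6 between 3 and 6 h. There edgeR gave 1, 1 and 0 at an unadjusted p under 0.05, and DESeq2 called 1, 1 and 0, each time Hoxc4 with its limit from the filter. The intervals are wide, and for most Hoxd genes a change of several fold in either direction lies within them. A fall or a rise of that size in these genes could therefore have been missed, and recovery of changes at such counts was not tested.

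The paralogs in the HoxA and HoxB clusters give the scale of the RA response in the same libraries. At 6 h edgeR called 8 of 8 tested genes of the HoxA list, which holds 10 genes, and 10 of 10 HoxB genes higher in BAP1-AID, where 3.56% of all genes were called higher, and 8 of 10 and 10 of 10 in UTX-AID. In BAP1-AID their median log2 fold changes were 7.14 for HoxA and 7.83 for HoxB, and in UTX-AID 3.33 for HoxA and 5.84 for HoxB. In paralog group 4, Hoxa4 changed by 8.73 and Hoxb4 by 7.05 in BAP1-AID, and by 4.63 and 5.38 in UTX-AID. Per kilobase of exon, the UTX-AID -IAA level at 6 h was 5.94 CPM per kb for Hoxb4, 3.86 for Hoxa4, 0.172 for Hoxc4 and 0.129 for Hoxd4. In paralog group 1 it was 3.4 CPM per kb for Hoxb1 and 0.235 for Hoxd1. Among the other members of that group of libraries, Hoxd9 stood at 0.0717 CPM per kb, Hoxd8 at 0.0383 and Hoxd3 at 0.0259, and these neighbours did not differ beyond the spread of their replicates.

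Summed counts showed the same contrast. In BAP1-AID the 10 HoxA genes summed to between 17 and 41 counts per library at 0 h and between 2579 and 3075 at 6 h. The HoxB genes went from 49 to 117 counts to between 4788 and 5704. The 5 Hoxc members summed to at most 3 counts at 0 h and at most 20 at 6 h, and the 5 Hoxd members to between 12 and 53 and between 16 and 34. In UTX-AID HoxA went from between 164 and 291 counts to between 1720 and 2188, and HoxB from between 58 and 78 to between 2121 and 2492. There the Hoxc members summed to between 0 and 18 counts at 0 h and between 15 and 29 at 6 h, and at 6 h Hoxc4 held all of them in 3 of the 4 libraries and 14 of 29 in the other, +IAA replicate 1, where 12 were of Hoxc5. The Hoxd members summed to between 49 and 59 at 0 h, between 27 and 60 at 3 h and between 53 and 69 at 6 h, so that the times overlapped.

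**Figure D2:**
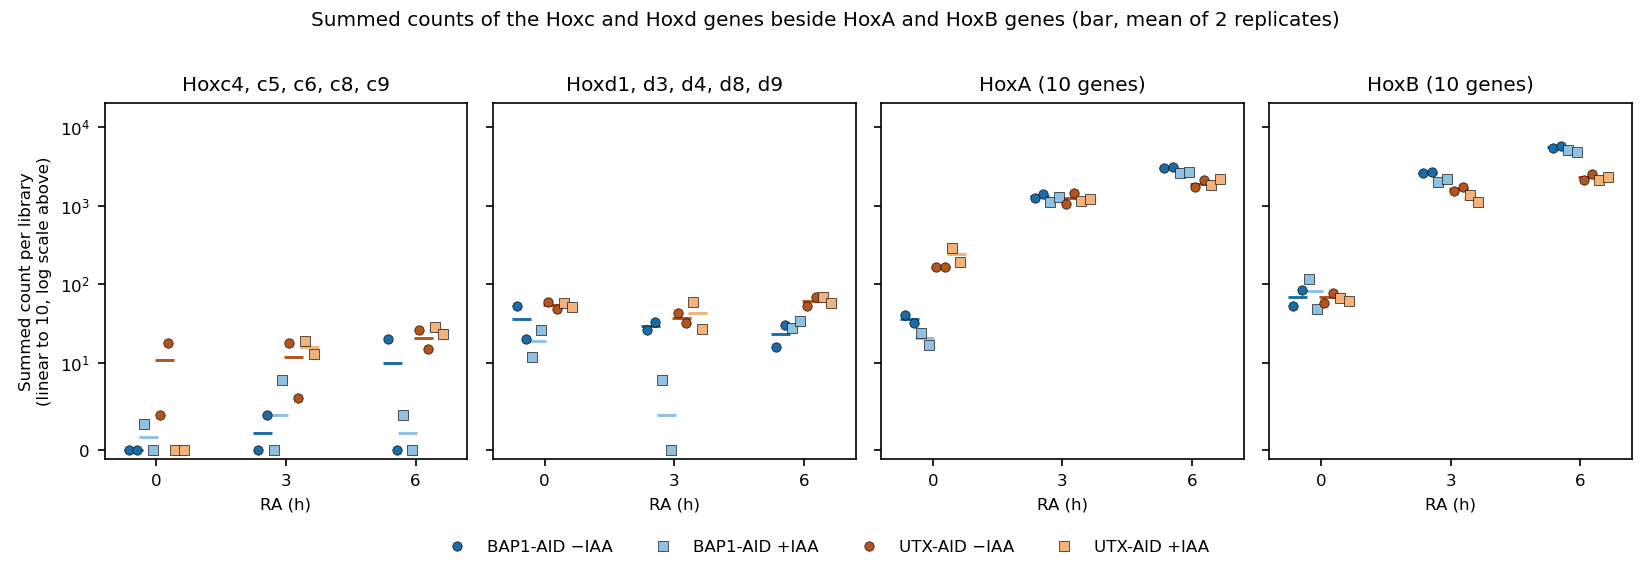
Summed estimated counts per library of the 5 Hoxc members, the 5 Hoxd members, 10 HoxA genes and 10 HoxB genes at 0, 3 and 6 h of RA, on an axis that is linear to 10 and logarithmic above; each point is 1 library and each bar a mean of 2 replicates. HoxA and HoxB rise to between 1720 and 5704 counts by 6 h, while the Hoxd members stay under 70 counts and the Hoxc members under 30.

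RA receptors bind direct repeats of a hexamer, so such repeats were searched for within 10000 bases of each gene start in mm39, on both strands. The gene start was the outermost start of the gene model, which for Hoxc5 lies within Hoxc10. Starts further inside a long model were not all covered. The hexamer was AGGTCA or the variant AGTTCA or the variant GGGTCA or the variant GGTTCA, in any pair, spaced by 5 or 2 bases. None of the 10 members and none of the 8 more 5′ Hoxc and Hoxd genes had a match in this window, while Hoxa9, Hoxa10, Hoxb1 and Hoxb2 did. All other genes of the HoxA and HoxB lists also had none. Among them were Hoxa4, Hoxa5, Hoxb4 and Hoxb5, which were called higher at 6 h of RA in both clones, so lack of a match was not particular to the Hoxc and Hoxd genes. Those near Hoxb1, the paralog of Hoxd1, and its neighbour Hoxb2 are shown with the hexamers in capitals and the spacer in lower case.
Hoxb1, chr11:96263602-96263618, + strand: GGTTCAtagagAGTTCA
Hoxb2, chr11:96232062-96232078, + strand: GGTTCAagaagAGTTCA
Hoxb1 and Hoxb2, chr11:96249962-96249975, + strand: AGGTCAtgAGTTCA
Over all 21757 protein-coding genes, 7.32% had a repeat spaced by 5, 23.2% one spaced by 2 and 28.8% either. A match is a description of the sequence and not a known site, and the absence of these letters from the window says nothing about binding of a receptor to these genes.

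No member was called with IAA in the fit of either clone. Averaged over the RA times, 0 of 3 tested genes were called in BAP1-AID, where 0.433% of all genes were called higher and 1.08% lower, and 0 of 6 in UTX-AID, where 0.135% were called in either direction. At an unadjusted p under 0.05 edgeR gave 0 and 1 of them. DESeq2 called 0 in BAP1-AID. In UTX-AID it gave no adjusted p for any member, so it could call none there. At 0, 3 and 6 h taken singly edgeR called 0 members too, where 1.15%, 0.892% and 1.61% of all genes were called in BAP1-AID, and for UTX-AID 0.0184%, 0.043% and 0.0123%, with 1 each at an unadjusted p under 0.05 in BAP1-AID at 3 h and in UTX-AID at 0 h. The first was Hoxd1, with 20 and 13 counts without IAA and 0 and 0 with it (log2 difference -7.08, SE 2.77, edgeR adjusted p = 0.12). The second was Hoxc4, with 4 and 14 counts without IAA and 0 and 0 with it (log2 difference -6.20, SE 1.91, edgeR adjusted p = 0.388). In both, a group at 0 sets the size of the difference.

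Hoxd3 and Hoxd9 were at 0 in every BAP1-AID +IAA library. Hoxd9 was at 0 in 6 of 6 of them, while the -IAA libraries held 8 and 14, 0 and 7, and 0 and 3 counts. Hoxd9 did not pass the filter in BAP1-AID. In the fit of all 24 libraries, where the UTX-AID libraries carried it through the filter, it was called lower with IAA averaged over the times (edgeR adjusted p = 0.0265), and Hoxd1 was called lower at 3 h (edgeR adjusted p = 0.0358). The +IAA groups at 0 set the size of both differences, which is therefore no exact fold. In that fit 1.38% of all genes were called lower with IAA averaged over the times in BAP1-AID and 1.03% at 3 h. The RA response was not called as different between the arms for any member, with 0 of 3 in BAP1-AID, where 0% and 0.0255% of all genes were called at 3 and 6 h, and 0 of 6 in UTX-AID, where 0.0123% and 0% were. In edgeR 1 gene at 3 h in BAP1-AID (Hoxd1), 1 at 3 h in UTX-AID and 1 at 6 h in UTX-AID (both Hoxc4) had an unadjusted p under 0.05. DESeq2 called none in UTX-AID. In BAP1-AID it gave no adjusted p for any member, so it could call none there.

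The clones themselves differed in the level of some members, as they did for a large share of all genes. At 0 h 0 of 6 tested members were called, while 14.9% of all genes were called higher in UTX-AID and 23.2% in either direction. At an unadjusted p under 0.05 edgeR gave 0 of them, and DESeq2 called none. At 3 h, where 14.7% of genes were called higher, Hoxd1 was higher in UTX-AID by 3.17 on the log2 scale (SE 1.33, edgeR adjusted p = 0.0436) and Hoxc4 by 6.58 (edgeR adjusted p = 0.00464). At 6 h, where 14.1% were, Hoxd9 was higher by 4.33 (edgeR adjusted p = 0.0405) and Hoxc4 by 4.31 (SE 1.54, edgeR adjusted p = 0.0225). Each of these 4 sizes is set at least in part by a BAP1-AID group at 0 and is no exact fold. Hoxc4 and Hoxd9 did not pass the filter in BAP1-AID and entered this fit through UTX-AID, where they were high, so their calls are a description of how often they were detected and no independent support for a difference. The Hoxc4 call at 3 h stayed when each library was left out in turn, and the other 3 calls did not. Hoxd1 at 3 h was no longer called without any 1 of 14 libraries, namely all 8 of 3 h, the -IAA 0 h replicate 2, the +IAA 0 h replicate 2 and all 4 of 6 h in UTX-AID (adjusted p between 0.0505 and 0.112). Hoxd9 at 6 h was lost without any 1 of 13 libraries, and could not be fitted without one of them, UTX-AID -IAA 6 h replicate 1, the other library of that group being at 0. In BAP1-AID the 13 were both -IAA libraries of 0 h, -IAA 6 h replicate 1 and both +IAA libraries of 6 h. In UTX-AID they were -IAA 0 h replicate 1, both +IAA libraries of 0 h, both -IAA libraries of 3 h, -IAA 6 h replicate 1 and both +IAA libraries of 6 h. Other calls began when a library was left out, for Hoxd1 at 0 h without BAP1-AID -IAA replicate 1 or +IAA replicate 2 of that time (edgeR adjusted p = 0.0297 and 0.0176), and for Hoxd9 at 3 h without BAP1-AID -IAA 3 h replicate 2 (edgeR adjusted p = 0.0484). Hoxc4 at 6 h was lost without any 1 of 5, namely -IAA replicate 2 and both +IAA replicates of BAP1-AID, and -IAA replicate 1 and +IAA replicate 2 of UTX-AID, all at 6 h (adjusted p between 0.0510 and 0.0740).

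Averaged over times and arms, a comparison chosen after seeing the data, Hoxd1 was 1.99 higher in UTX-AID (SE 0.65, edgeR adjusted p = 0.00878) and Hoxd9, with the same limit from the filter, 3.55 higher (SE 1.00, edgeR adjusted p = 0.00342), where 17.4% of all genes were called higher. Hoxd9 could not be fitted without UTX-AID -IAA 6 h replicate 1 or UTX-AID +IAA 3 h replicate 1, each of which leaves a group at 0. Hoxc4 could not be fitted there because of its groups at 0. In an additive fit of clone, arm and time, with 17.4% of genes called higher, Hoxd1 was not called, at 1.23 (95% interval -0.03 to 2.49, edgeR adjusted p = 0.0734). That additive fit called Hoxc4 higher in UTX-AID by 4.29 (edgeR adjusted p = 0.000126) and Hoxd9 by 2.64 (edgeR adjusted p = 0.0104), both with the same limit from the filter. Embryonic fibroblast markers, a cell type in which Hoxc genes can be expressed, moved with the clone in the opposite direction. The 8 markers summed to between 10.8 and 17 CPM in BAP1-AID and between 3.74 and 9.34 CPM in UTX-AID, and 3 of 8 were above the limit in every library of each clone. Of the 8, Postn was at 0 in all libraries of both clones and Lum in all of UTX-AID. The 5 trophoblast markers summed to between 13.5 and 22.6 CPM in BAP1-AID and between 4.69 and 16.8 CPM in UTX-AID, with 2 of 5 above the limit in every library of each clone. The 5 primitive endoderm markers summed to between 3.8 and 8 CPM and between 2.11 and 5.22 CPM, with 4 and 3 of 5 above it throughout. The 5 markers of posterior mesoderm, a tissue that expresses Hox genes, summed to between 0.371 and 3.3 CPM in BAP1-AID and between 0.403 and 4.8 CPM in UTX-AID, with 0 and 1 of 5 above it throughout. The part of these markers in the clone difference was not tested.

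The RA response of the members was not shown to differ between the clones. Of the 6 genes tested, 0 were called at 3 h and 0 at 6 h, where 0.262% and 0.648% of all genes were called, edgeR gave 0 at an unadjusted p under 0.05 at both times, and DESeq2 called none. No member was called higher at 6 h in both clones, so no gene was sought whose pattern resembled a member's.

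The 5′ genes of the same clusters, which pattern the tail and the limb, included 3 that went down with RA in BAP1-AID. Hoxd13, the last gene of the HoxD cluster, held 138 and 155 counts at 0 h, 44 and 96 at 3 h and 81 and 57 at 6 h in the -IAA libraries of BAP1-AID. In the +IAA libraries it held 189 and 196, 93 and 72, and 109 and 102. Every RA-treated library was below every 0 h library. At 3 h the log2 change was -1.08 (SE 0.23, edgeR adjusted p = 0.00740), where 0.535% of all genes were called lower, and at 6 h it was -0.94 (edgeR adjusted p = 0.00914), just short of the fold threshold. Without -IAA 3 h replicate 1 the 3 h change was -0.88, also short of it, and without -IAA 6 h replicate 1 the 6 h change was -1.12 and called.

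Hoxd11 and Hoxc13 were the other 5′ genes called lower in BAP1-AID, at 6 h, where 1.56% of all genes were called lower. Hoxd11 held 41 and 47 counts at 0 h and 6 and 3 at 6 h in the -IAA libraries, and 27 and 44 at 0 h and 0 and 0 at 6 h in the +IAA libraries. Its log2 change was -5.67 (SE 1.23, edgeR adjusted p = 0.00572), and -4.11 in the additive fit. The size rests in part on the +IAA group at 0. Within the +IAA arm it was called (edgeR adjusted p = 0.0211), but not without any 1 of +IAA 0 h replicate 2 and both +IAA 6 h replicates (adjusted p between 0.0769 and 0.106). Within the -IAA arm it was -3.20 (edgeR adjusted p = 0.131), and was called only without -IAA 3 h replicate 1 or replicate 2 (adjusted p = 0.0239 and 0.0157). At 3 h its change was called only without -IAA 3 h replicate 1, a library with 22 counts beside 0 in its replicate (-4.61, edgeR adjusted p = 0.0122). Hoxc13 held 56 and 28 counts at 0 h and 24 and 15 at 6 h without IAA, and 50 and 70 at 0 h and 21 and 7 at 6 h with it. Its change was -1.56 (SE 0.42, edgeR adjusted p = 0.0174), and the call ended without any 1 of 4 libraries, namely -IAA 0 h replicate 1, -IAA 6 h replicate 2, +IAA 0 h replicate 2 and +IAA 6 h replicate 2 (adjusted p between 0.059 and 0.074). Of the 8 genes of this list 4 were tested in BAP1-AID, with 1 called lower at 3 h and 2 at 6 h and none higher.

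In UTX-AID 4 of the 8 were tested and 0 were called by edgeR or DESeq2 at 3 h or 6 h, where 0.27% and 0.639% of all genes were called lower. At an unadjusted p under 0.05 edgeR gave 1 at 3 h and 2 at 6 h. Hoxd13 held 248 and 132 counts at 0 h and 88 and 176 at 6 h without IAA, and 216 and 181 at 0 h and 144 and 114 at 6 h with it. Its log2 change was -0.89 at 3 h (edgeR adjusted p = 0.0226, short of the fold threshold, and -1.09 and called without -IAA 0 h replicate 2) and -0.56 at 6 h (edgeR adjusted p = 0.136). Hoxd10 held 39 and 0 counts without IAA and 13 and 17 with it at 0 h, and 0 in all 4 libraries at 6 h, and its fitted change of -7.10, a size set by those groups at 0 (edgeR adjusted p = 0.0566) was not called, whereas the additive fit called it (-7.14, edgeR adjusted p = 0.035), as did the fit with a coefficient per group without -IAA 0 h replicate 2 or -IAA 3 h replicate 2 (adjusted p = 0.0310 and 0.0445). In UTX-AID Hoxd10 passed the filter only through 0 h libraries, where it was high, so neither its fitted change nor these calls are support for a fall. Hoxd11 changed by -1.86 (edgeR adjusted p = 0.272) and Hoxc13 by 0.01. The difference between the clones in these responses was not called. For Hoxc13 at 6 h it was 1.58 (edgeR adjusted p = 0.224) and for Hoxd11 3.81 (edgeR adjusted p = 0.311). Of the noncoding RNAs and neighbouring genes of the clusters, 3 of 6 (Lnpk, Mtx2 and Haglr) were tested in each clone and 0 were called with RA at 3 or 6 h by edgeR or DESeq2, with 0 at an unadjusted p under 0.05. Haglr, the antisense RNA beside Hoxd1, ranged from 0 to 30 counts in BAP1-AID and from 0 to 24 in UTX-AID.

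**Figure D3:**
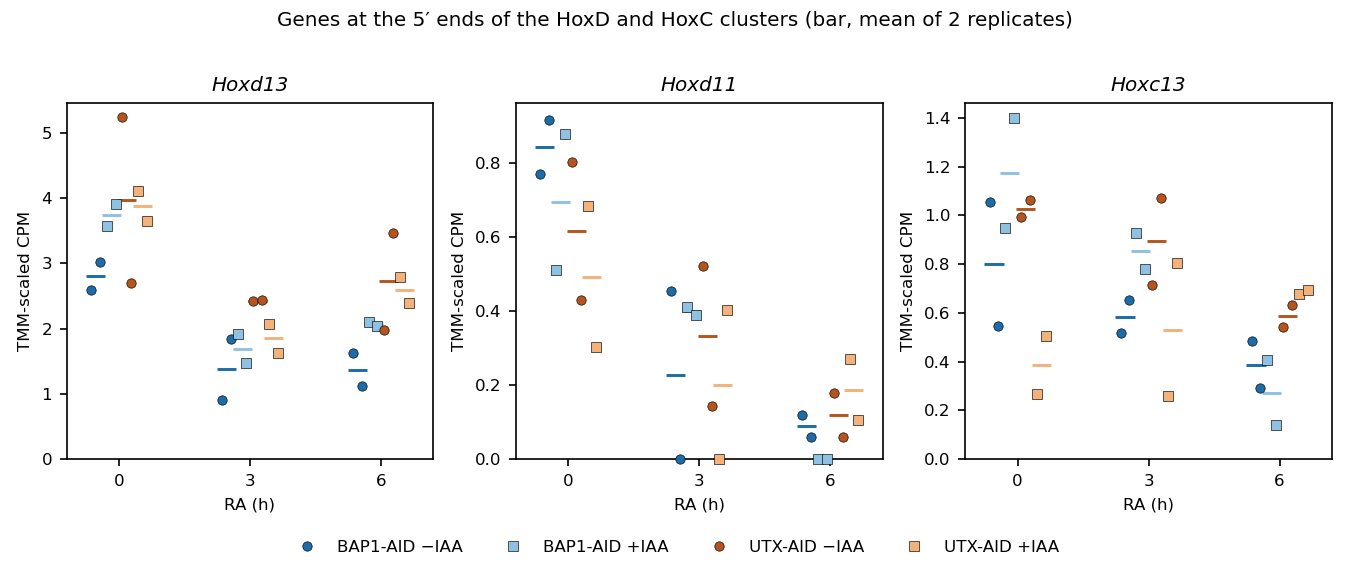
Level of Hoxd13, Hoxd11 and Hoxc13 (CPM scaled by TMM factors) in each library at 0, 3 and 6 h of RA, by clone and IAA arm; each point is 1 library and each bar a mean of 2 replicates. In BAP1-AID every RA-treated library lies below every 0 h library for Hoxd13.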

How the data were processed

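The 24 libraries held polyadenylated RNA of BAP1-AID and UTX-AID ESCs, 12 per clone, in 12 groups of 2 taken from the sample titles. Per the labels, the authors worked on mm39 with HISAT2 2.2.1, SAMtools 1.19, deepTools 3.5.4 and StringTie 2.2.1; the gene annotation and the strand setting are not given in the sources used here. The deposited table holds StringTie's estimated counts per gene as whole numbers, not normalized, and they were used as deposited. Levels are CPM scaled by TMM factors. Genes were filtered with filterByExpr (10 counts, 15 in total), which left 15695 genes for the BAP1-AID fit and 16268 for the UTX-AID fit, and tested with edgeR 4.0.16 (R 4.3.3) quasi-likelihood F-tests, in one fit per clone with a coefficient per group, and in one fit of all 24 libraries (16816 genes) for differences between the clones. P-values were adjusted over all genes of a fit by the Benjamini-Hochberg method. Calls needed an adjusted p below 0.05 and a log2 fold change beyond 1 in either direction. The thresholds follow the study's methods, where DESeq2 was used; here DESeq2 1.42.0 was an alternative, beside RLE factors, no filter, a replicate block, a GC and length correction, one fit of all libraries, no fold threshold, CPM on raw totals and leaving out each library. The fits were tested on simulated data, in which every changed gene had a mean count above all counts of the members. Recovery of changes at the members' counts was therefore not tested. The genes named were all 10 members, described by whether they passed the filter and were called, with the rest of the HoxC and HoxD clusters, their noncoding RNAs and neighbours, and 10 genes each of the HoxA and HoxB clusters as counts. 1 further gene is not reported here. Members and lists were chosen with earlier results of these data known. Gene models came from GENCODE vM39, and 91% of gene symbols matched it.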

Additional observations from a re-analysis of the deposited data

Results flagged for a closer look

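At 6 h of RA the sign of the Hoxd8 change on a log2 scale was opposite in the clones in every library, which is why it is given here. On the log2(CPM + 0.1) scale each 6 h library was set against the mean of its 0 h group. The 4 UTX-AID libraries lay between -0.88 and -0.10, and the 4 BAP1-AID libraries between 0.12 and 1.13. The BAP1-AID -IAA group held 6 counts in sum at 0 h and 6 at 6 h (means of 0.0565 and 0.0596 CPM), so its mean level hardly changed. Libraries of a group were set against the same 0 h mean, so their signs are not independent. The difference between the clones, tested in the fit of all 24 libraries, was -1.30 (SE 1.77, edgeR adjusted p = 0.869), and was not called. All of these libraries held between 3 and 17 counts of Hoxd8. Groups of 2 are too small for a check of single outlying libraries.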

How the results depend on the processing

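Counts of members called were recomputed under each alternative. They stayed within 1.5 times the reported count in 32 of 32 comparisons with RLE factors, with the GC and length correction and with no fold threshold. DESeq2 kept 29 of 32, though in some of these it gave no adjusted p for any member and so could call none. It called 1 member in UTX-AID at 3 h in the mean of the arms and 1 in its +IAA arm at 3 h. Between the clones, averaged over times, it called 4, namely Hoxd1, Hoxd8, Hoxd9 and Hoxc4. Of these, Hoxd9 and Hoxc4 carry the limit from the filter. In that comparison edgeR called 17.4% of all genes higher, and the share for DESeq2 is not given here. Without the filter 31 of 32 stayed, and 1 member was called in the +IAA arm of UTX-AID at 3 h. With all 24 libraries in one fit 22 of 26 stayed; 1 member was called with IAA in BAP1-AID at 3 h and 1 averaged over times, and 0 in UTX-AID at 6 h of RA in the mean of the arms and 0 in its +IAA arm. The additive fit, chosen after seeing the data, gave 0 at 6 h in UTX-AID. Leaving out 1 library gave 0 to 1 members at 6 h in UTX-AID, 0 to 1 in its +IAA arm, and, between the clones, 0 to 1 at 0 h, 1 to 2 at 3 h, 0 to 2 at 6 h and 1 to 3 averaged over times. Replicate numbers shared by the groups did not pair the libraries: deviations of same-numbered libraries correlated between -0.0387 and 0.0626 in BAP1-AID and between -0.0119 and 0.0724 in UTX-AID. With the replicate block, alone or with the GC and length correction, 29 of 32 counts stayed. The clone difference then gave 1 member at 0 h, 1 at 6 h and 1 averaged over times, each time Hoxd9. The Hoxc4 call at 6 h was thus lost, and averaged over times Hoxd1 was not called (edgeR adjusted p = 0.111, and 0.0776 with the correction). At 3 h the count stayed but the members did not, since Hoxd9 was called beside Hoxc4 and Hoxd1 was not. Signs turned only for changes at 6 h that were not called: Hoxc13 in UTX-AID was -0.028 with the GC and length correction, -0.0018 with the replicate block added, -0.011 with all libraries in one fit, and between -0.18 and 0.27 with 1 library left out, which gave Hoxd1 -0.76 to 2.85 in BAP1-AID and -0.061 to 0.33 in UTX-AID, Hoxd4 -0.27 to 3.11 in BAP1-AID and Hoxd9 -3.03 to 0.45 in UTX-AID. The cause of these changes was not tested. All members lay at or under 26 counts, where changes of several fold lay within the intervals of most Hoxd genes.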
